A study of Mus musculus with 25 samples.

Results

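The insulin-like growth factor (IGF) axis was followed in embryonic mesenchyme through 7 genes: the ligand genes Igf1 and Igf2, the receptor genes Igf1r, Insr and Igf2r, and the docking protein genes Irs1 and Irs2. The members were taken as the ligands, receptors and receptor substrates of the axis and matched to the count matrix by Ensembl identifier. The rule uses no measured value, but earlier results of these data were known when the members were chosen. All 7 were found among its 35880 genes, and all 7 passed the filter on low counts that kept 17657 genes for testing. Transcripts were sequenced (RNA-Seq) in 25 mesenchyme pools of C57Bl/6JOlaHsd mouse embryos, 5 for each of 5 tissues. These were the fat pad precursor at E16.5 (FP), the mammary mesenchyme at E16.5 (MM16) and at E13.5 (MM13), the ventral skin mesenchyme away from the gland at E13.5 (VM) and the salivary gland mesenchyme at E13.5 (SM). No transgene, mutation or treatment is given for the embryos, and the epithelium was removed with needles after enzyme digestion. A pool held the tissue of 2 to 3 embryos from a single litter, and with 3 litters behind each set of 5 pools some pools shared a litter. The p-values therefore measure the spread between pools. The plots write the stage before the tissue (E16.5 MM for MM16). E16.5 pools were labelled female while no sex was given at E13.5, so a difference between the stages cannot be told apart from a difference in the sex of the embryos. The Y-linked gene Ddx3y had 2430 to 6115 normalized counts in the MM13 pools, 1426 to 2551 in the VM pools and 0 to 4507 in the SM pools, against at most 1.16 in the E16.5 pools. By this gene, male tissue was in every MM13 and VM pool and was not detected in every SM pool. The sum of 4 Y-linked genes, Ddx3y among them, separated the stages less. In counts scaled to an equal library total (CPM) it was 312 to 655 in MM13, 219 to 337 in VM and 142 to 659 in SM. At E16.5 it was 66.6 to 198 CPM in MM16 and 52.2 to 202.5 CPM in FP, and the source of these counts was not tested.

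IGF1 and IGF2 are secreted growth factors. They bind the receptor tyrosine kinase encoded by Igf1r, IGF2 also binds the insulin receptor encoded by Insr, and both receptors pass the signal to phosphatidylinositol 3-kinase and AKT through the docking proteins IRS1 and IRS2. IGF2R, the cation-independent mannose 6-phosphate receptor, has no kinase domain and carries IGF2 to the lysosome for breakdown. In the mouse Igf2 is expressed from the paternal allele and Igf2r from the maternal allele, and the axis is known for its role in the growth of the embryo and of glands such as the mammary gland.

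Total counts per pool ran between 20678150 and 34448304. The summed level of 11 mesenchyme markers was at least 13410 CPM (counts scaled to an equal library total) in every pool, and that of 11 epithelial markers at most 118 CPM. Other cells differed between the tissues. Skeletal muscle markers (13 genes) summed to 2260 to 22160 CPM in FP and to 108 to 659 CPM in SM, and adipocyte markers (7 genes) to 1023 to 1860 CPM in FP, against 160 to 398 CPM in MM16. Leukocyte markers (7 genes) summed to 313 to 383 CPM in the E16.5 pools and to 45.6 to 59.0 CPM in SM. In bulk samples such as these, fewer cells of a type and less RNA per cell cannot be told apart. Counts were scaled to a common library size, and the scaled values are called normalized counts. A call required 3 things of a gene: an adjusted p under 0.05 (edgeR's quasi-likelihood test, Benjamini-Hochberg adjustment over the 17657 genes), a log2 fold change past 0.58 in either direction, and a mean above 50 normalized counts in the higher tissue. Log2 fold changes are given with their standard errors and run as the first tissue named over the second.

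Igf1 (ENSMUSG00000020053, GRCm38 chr10:87858265-87937042, plus strand) differed most among the members and was higher in every SM pool than in any other. It had 11722, 12714, 7437, 9898 and 7339 normalized counts in FP. In MM16 it had 9757, 11059, 8511, 7949 and 12888. The ranges of the E16.5 tissues overlapped. Igf1 had 4964, 4487, 5452, 3891 and 3704 normalized counts in MM13. In VM it had 1641, 3683, 1401, 1434 and 1405. The SM pools held 25076, 20888, 23773, 24005 and 24111. The pools thus formed 4 levels without overlap, SM at the top, both E16.5 tissues next, then MM13 and VM, although the highest VM pool lay just under the lowest MM13 pool. The mean in the highest tissue was 12.3 times that in the lowest, a wider range than that of 95% of the 12709 tested genes with a mean above 100, whose median range was 1.72-fold.

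Igf1 was lower in each of the mammary-region tissues than in SM. The log2 fold change was -2.39 ± 0.24 in MM13 (adjusted p = 7.95e-09, edgeR), -1.23 ± 0.23 in MM16 (adjusted p = 5.44e-05) and -1.26 ± 0.23 in FP (adjusted p = 3.56e-05). It was also lower in VM than in SM, with a log2 fold change of -3.62 ± 0.25. These comparisons share the SM pools. Within the skin of the same stage Igf1 was 2.35-fold higher in MM13 than in VM (log2 fold change 1.23 ± 0.23, adjusted p = 0.000403 by edgeR). It was higher again at E16.5, by 1.16 ± 0.23 in MM16 over MM13 (adjusted p = 0.000212, edgeR) and by 1.13 ± 0.23 in FP over MM13 (adjusted p = 0.000209). Between the E16.5 tissues the log2 fold change was -0.03 ± 0.22 with a 95% confidence interval from -0.50 to 0.43, so a difference of up to about that size in either direction was not excluded. Without the VM pool of 3683 counts, the log2 fold change of MM13 over VM was 1.61. Proliferation markers (7 genes) summed to 1027 to 1579 CPM in SM and to at least 1964 CPM in every other pool, and 5 markers of salivary mesenchyme, among them Nr5a2 and Barx1, to 630 to 744 CPM in SM and to at most 64.3 CPM elsewhere. Mast cell markers (5 genes) summed to at least 1526 CPM in every E16.5 pool, against at most 259 CPM in MM13. Whether these differences take part in the level of Igf1 was not tested.

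**Figure D1:**
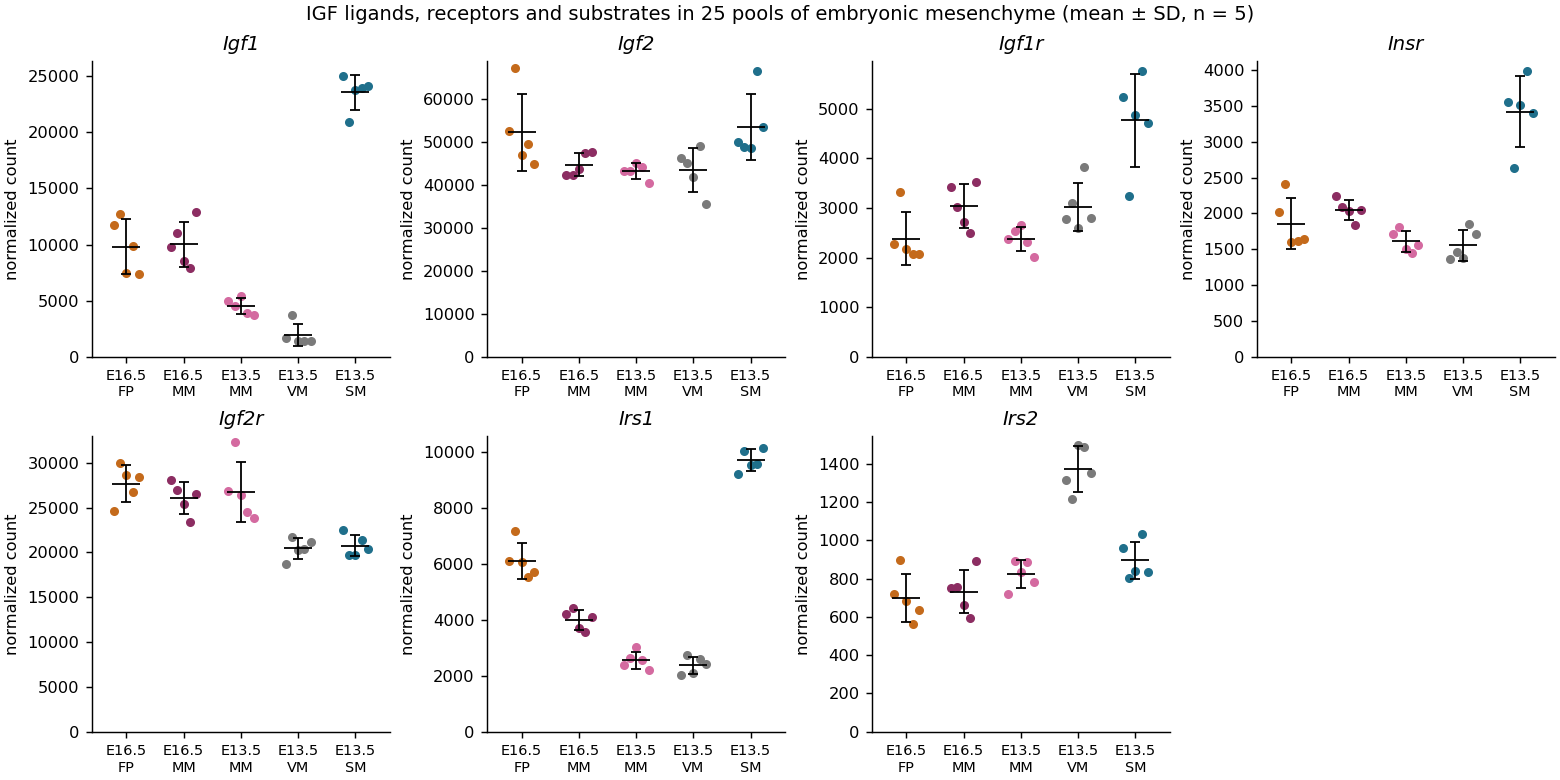
Normalized counts of the 7 members in each pool (points), by tissue, with the mean and SD of the 5 pools (black bars). The axes are linear and start at 0. Igf1 and Irs1 are highest in all SM pools, Irs2 is highest in VM, and the Igf2 values of the 5 tissues lie between 35435 and 67116 with no tissue apart from all others.

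Igf2 (ENSMUSG00000048583, GRCm38 chr7:142650766-142666816, minus strand) was abundant and varied little between tissues. Per kilobase of exon it ranked between 77 and 147 among 17576 tested genes in the 5 tissues, while Igf1 ranked between 325 in SM and 6159 in VM. It had 52400, 67116, 46796, 49497 and 44765 normalized counts in FP, and 42230, 42317, 43701, 47250 and 47622 in MM16. The MM13 pools held 43126, 43054, 45111, 44197 and 40285. In VM it had 46092, 45117, 41679, 48890 and 35435, and in SM 49880, 48653, 48455, 66457 and 53400. All pairs of tissues overlapped except MM13 and MM16, each against SM. The highest mean was 1.24 times the lowest, a range smaller than that of all but 7.2% of the genes compared. Igf2 was called in 0 of the 10 comparisons by edgeR and in 0 by the Wald test of DESeq2, although its unadjusted p was under 0.05 in 6 of them by edgeR. In these, except FP against MM16 (adjusted p = 0.101, edgeR), the adjusted p was under 0.05 too, and the fold changes were short of a call. The log2 fold change farthest from 0 was -0.31 ± 0.10 in MM13 against SM (95% confidence interval -0.52 to -0.09, adjusted p = 0.0127 by edgeR). Without the SM pool of 66457 counts it was -0.22, with an adjusted p of 0.0639 in edgeR's test. Gm49394, an annotated gene that shares 3596 bases of exon with Igf2 on the same strand, had 8 to 223 counts per pool, so Igf2 reads assigned to Gm49394 would change the Igf2 values little. How many reads of Gm49394 were assigned to Igf2 cannot be read from these counts.

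Per kilobase of merged exon, Igf1 made up 9.75% ± 1.25 of the sum of both ligand transcripts in FP, 11.5% ± 1.98 in MM16, 5.67% ± 0.731 in MM13, 2.47% ± 1.16 in VM and 20.5% ± 2.09 in SM (SD, n = 5 each). The sum itself was 10098 ± 1766 normalized counts per kb in FP, 8810 ± 527 in MM16, 7995 ± 370 in MM13, 7784 ± 930 in VM and 11705 ± 1374 in SM. Most of the ligand message was thus Igf2 in every tissue, and the differences in ligand makeup came with Igf1. The difference in the log2 ratio of Igf1 to Igf2 was -2.10 in MM13 minus SM and 1.34 in MM13 minus VM, both with an adjusted p of 0.0144 over 40 comparisons of ratios (exact two-sided permutation test, whose smallest p is 0.00794). It was 1.10 higher in MM16 than in MM13 and 0.85 higher in FP than in MM13, with the same adjusted p by the exact test, while the difference of FP minus MM16 was -0.26 (exact p = 0.127, adjusted 0.154).

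The signalling receptors were higher in SM than elsewhere. Igf1r (ENSMUSG00000005533, GRCm38 chr7:67952827-68233668, plus strand) had 2266, 3320, 2176, 2071 and 2062 normalized counts in FP, and 3433, 3028, 2719, 2488 and 3531 in MM16. It had 2369, 2543, 2654, 2316 and 2016 in MM13, and 2786, 3102, 2601, 3832 and 2796 in VM. The SM pools held 5233, 3242, 4870, 5769 and 4720. Of these, the pool of 3242 lay within the range of FP, MM16 and VM, while the 4 others lay above every pool of the other tissues. The log2 fold change of Igf1r against SM was -1.002 ± 0.15 in MM13 (adjusted p = 2.33e-06, edgeR), -0.65 ± 0.15 in MM16 (adjusted p = 0.00042) and -1.002 ± 0.15 in FP (adjusted p = 1.71e-06). Without the pool of 3242 counts these were -1.12, -0.75 and -1.11. The difference in MM16 came under the 0.58 of a call, at -0.57 without SM replicate 4 and at -0.56 without MM16 replicate 4.

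Insr (ENSMUSG00000005534, GRCm38 chr8:3122061-3279617, minus strand) was likewise highest in SM. It had 2019, 2412, 1603, 1617 and 1642 normalized counts in FP, 2238, 2088, 2032, 1844 and 2054 in MM16, and 1708, 1813, 1509, 1450 and 1563 in MM13. In VM it had 1365, 1458, 1373, 1856 and 1716, and in SM 3549, 2633, 3511, 3994 and 3407. Every SM pool lay above every other pool. The log2 fold change against SM was -1.09 ± 0.12 in MM13 (adjusted p = 1.21e-08, edgeR), -0.74 ± 0.12 in MM16 (adjusted p = 4.49e-06) and -0.88 ± 0.12 in FP (adjusted p = 2.73e-07). Among the tissues other than SM neither receptor was called in any comparison, the largest log2 fold changes being 0.40 ± 0.12 for Insr in MM16 over VM and -0.35 ± 0.15 for Igf1r in FP over MM16. Some of these differences had an adjusted p under 0.05 in edgeR and were short only of the fold change of a call. For Insr it was 0.00504 in MM16 against VM and 0.0142 in MM16 against MM13. For Igf1r it was 0.048 in MM16 against MM13 and 0.0483 in FP against VM.

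The receptors were also compared per kilobase. Igf1r made up 51.1% ± 2.03 of their sum in FP, 54.6% ± 2.55 in MM16, 54.7% ± 3.06 in MM13, 61.4% ± 2.57 in VM and 53.1% ± 1.74 in SM (SD, n = 5 each). VM stood highest. The log2 ratio of Igf1r to Insr differed by -0.39 in MM13 minus VM (exact permutation p = 0.0159, adjusted 0.0254) and by 0.49 in VM minus SM (exact permutation p = 0.00794, adjusted 0.0144).

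Both receptor genes have long transcripts, with 16791 bases of merged exon for Igf1r and 13746 for Insr, and long genes as a class stood higher in SM. Over the 1388 tested genes with more than 10 kb of merged exon and a mean above 100, the median log2 fold change was -0.31 in MM13, -0.30 in MM16 and -0.30 in FP against SM. Over the 1459 genes under 2 kb it was 0.38, 0.25 and 0.38 in the same order of tissues. The SM pool with 3242 Igf1r counts was also the lowest of its tissue for this class, with a median log2 deviation of 0.06 from the mean over all pools against 0.26 to 0.29 in the 4 others. Set against the median of their class, the differences were smaller. Those in MM13, MM16 and FP were -0.69, -0.35 and -0.70 for Igf1r, and -0.77, -0.44 and -0.58 for Insr. Igf1r in MM16 and Insr in MM16 and FP then came under the 0.58 that a call needed. What part of the receptor differences goes with transcript length was not tested further. For Igf1, with 9904 bases, the class of 5 to 10 kb had medians of -0.13, -0.21 and -0.22, which left -2.26, -1.03 and -1.04.

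**Figure D2:**
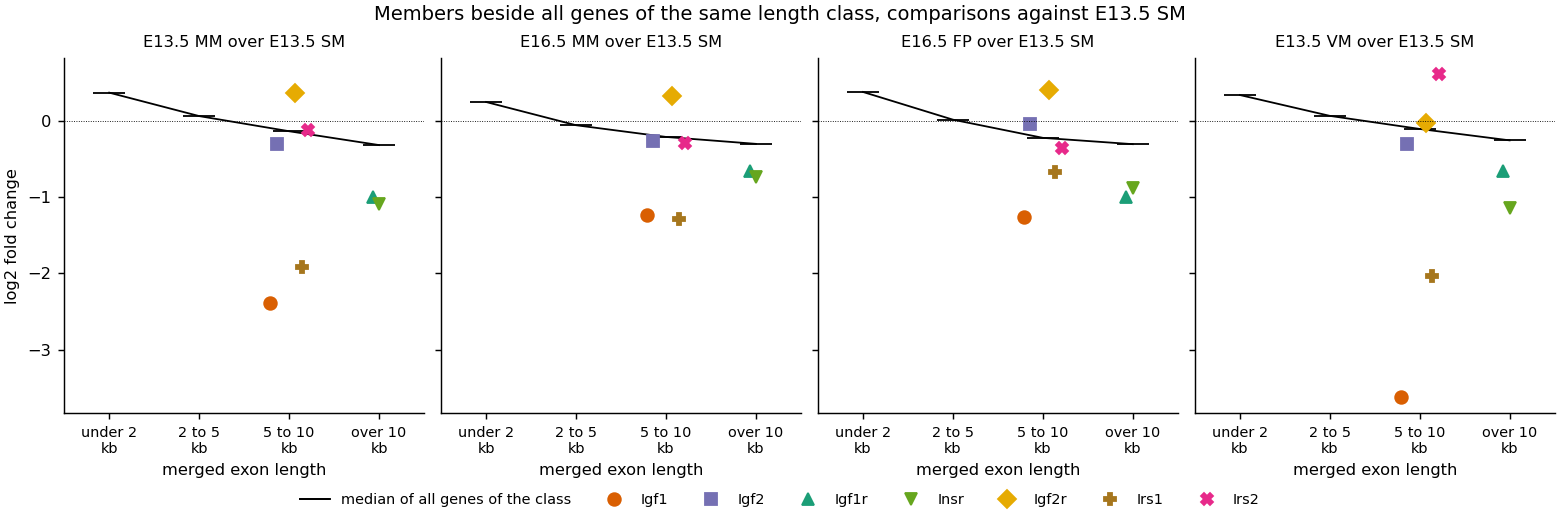
Log2 fold change against SM of the 7 members (coloured symbols) and median over all tested genes with a mean above 100 (black line), by class of merged exon length, 1 panel for each of the 4 other tissues. The class medians run from above 0 for short genes to below 0 for genes over 10 kb, and Igf1, Irs1, Igf1r and Insr lie below the median of their class in every panel.

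Igf2r (ENSMUSG00000023830, GRCm38 chr17:12682406-12769664, minus strand), the receptor that removes IGF2, went the other way, though by less than the fold change a call needed. It had 24572, 30027, 28649, 26790 and 28412 normalized counts in FP, and 28090, 26949, 25393, 23353 and 26471 in MM16. It had 26840, 32296, 26358, 24550 and 23801 in MM13, against 18713, 21771, 20282, 20382 and 21178 in VM and 22559, 19773, 19731, 21382 and 20437 in SM. All 15 pools of the mammary region lay above all 10 pools of ventral skin and salivary mesenchyme. The log2 fold change against SM was 0.37 ± 0.08 in MM13 (adjusted p = 0.000238, edgeR), 0.33 ± 0.08 in MM16 (adjusted p = 0.000691) and 0.41 ± 0.08 in FP (adjusted p = 4.32e-05), and it was 0.39 ± 0.08 in MM13 over VM (adjusted p = 0.00076). Among the mammary-region tissues it was at most 0.09 in size, and in VM against SM it was -0.02 ± 0.08. The log2 ratio of Igf2 to Igf2r differed from that in SM by -0.66 in MM13, -0.57 in MM16 and -0.45 in FP, with adjusted p of 0.0144, 0.0144 and 0.0254 in the exact permutation test. Without SM replicate 4 the last of these was -0.38 with an adjusted p of 0.0567 by the exact test.

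Irs1 (ENSMUSG00000055980, GRCm38 chr1:82233101-82291416, minus strand) followed the order of Igf1 in part. It had 6096, 7186, 6052, 5523 and 5692 normalized counts in FP, 4195, 4419, 3704, 3555 and 4084 in MM16, and 2383, 2635, 3015, 2565 and 2202 in MM13. In VM it had 2023, 2732, 2088, 2588 and 2422, and in SM 9203, 10026, 9541, 9556 and 10152. SM, FP and MM16 formed 3 levels with no overlap between them, while MM13 and VM shared the lowest level. The log2 fold change against SM was -1.92 ± 0.09 in MM13 (adjusted p = 5.14e-15, edgeR), -1.28 ± 0.09 in MM16 (adjusted p = 6.37e-12) and -0.67 ± 0.09 in FP (adjusted p = 4.75e-07). Relative to the median of its length class, that in FP was -0.45, under the 0.58 of a call. Irs1 was higher at the later stage, by 0.64 ± 0.09 in MM16 over MM13 (adjusted p = 2.76e-06) and by 1.25 ± 0.09 in FP over MM13 (adjusted p = 1.66e-11, edgeR). It was the only member called between the E16.5 tissues, 0.61 ± 0.09 higher in FP than in MM16 (adjusted p = 7.25e-06, edgeR). That difference kept its direction but came under 0.58 without FP replicate 2 (0.53) and without MM16 replicate 4 (0.56). The FP pools also held the adipocyte and muscle markers given above. The pool with the lowest muscle sum, 2260 CPM, had 5692 Irs1 counts, within the range of the 4 others, and the part of these cells in the Irs1 level was not tested. In MM13 against VM the log2 fold change of Irs1 was 0.11 ± 0.09 (95% confidence interval -0.08 to 0.30).

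Irs2 (ENSMUSG00000038894, GRCm38 chr8:10984681-11008458, minus strand) was highest in ventral skin. It had 719, 900, 685, 562 and 636 normalized counts in FP, 752, 757, 664, 595 and 895 in MM16, and 723, 893, 836, 885 and 785 in MM13. In VM it had 1318, 1214, 1498, 1486 and 1350, and in SM 961, 805, 840, 1035 and 835. Every VM pool lay above every other pool, and the other tissues overlapped. Irs2 was lower in MM13 than in VM (log2 fold change -0.74 ± 0.11, adjusted p = 2.65e-05 by edgeR), and higher in VM than in SM, with a log2 fold change of 0.62 ± 0.11 (adjusted p = 3.54e-05, and 0.57 without SM replicate 2, under the 0.58 of a call). The makeup of the docking proteins shifted accordingly. Per kilobase Irs1 made up 85.9% ± 0.922 of the sum of both in FP, 79.1% ± 1.82 in MM16, 68.1% ± 2.25 in MM13, 54.3% ± 4.46 in VM and 88.2% ± 1.44 in SM (SD, n = 5 each). The log2 ratio of Irs1 to Irs2 differed in all 10 comparisons of tissues in the exact permutation test, with adjusted p of 0.0144 in 9 of them and 0.0366 in FP against SM, where it no longer passed without SM replicate 2 or FP replicate 1, 2, 3 or 5 (adjusted p 0.0548 to 0.0824, exact permutation test). Of the 40 comparisons of ratios made over 4 pairs of genes, 27 passed.

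**Figure D3:**
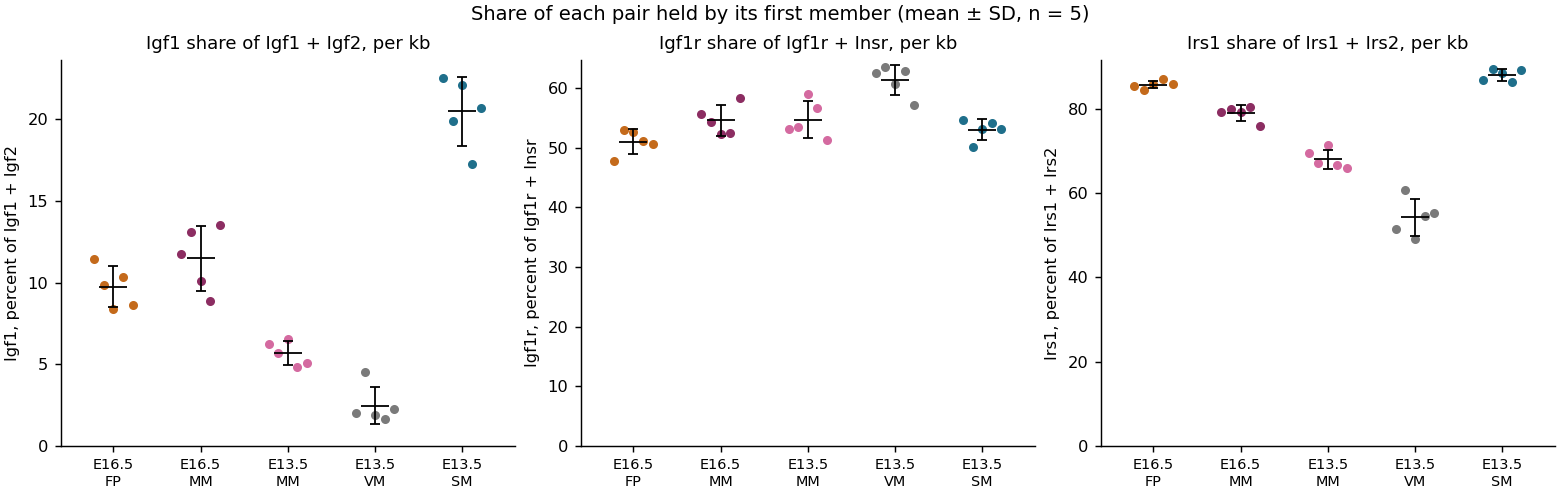
Percent of the summed level per kilobase held by Igf1 (of Igf1 and Igf2), Igf1r (of Igf1r and Insr) and Irs1 (of Irs1 and Irs2) in each pool, with the mean and SD of the 5 pools of a tissue. Axes start at 0. The Igf1 and Irs1 shares are lowest in VM, at 2.47% and 54.3%, and highest in SM, at 20.5% and 88.2%, while the Igf1r share stays between 47.9% and 63.5% in all pools.

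Igf1 and Irs1 were the pair of members whose levels were most alike over the 25 pools (Pearson's r of log2 CPM 0.901), and Igf1 and Irs2 were among the most unlike (r = -0.567). These values describe pools that share tissues and libraries. The start regions of these genes are given below so that their makeup can be compared. RefSeq entries for the build GRCm38.p6 matched 6 of the 7 members, all but Insr. The windows run from 250 bases before to 50 bases after the annotated start. Capitals mark exact matches, on either strand, to a TATA box (TATAAA), a GC box (GGGCGG), a FOXO motif (GTAAACA) or a TCF/LEF motif (CTTTGAA).
Igf1 (chr10:87860861-87861160, plus strand): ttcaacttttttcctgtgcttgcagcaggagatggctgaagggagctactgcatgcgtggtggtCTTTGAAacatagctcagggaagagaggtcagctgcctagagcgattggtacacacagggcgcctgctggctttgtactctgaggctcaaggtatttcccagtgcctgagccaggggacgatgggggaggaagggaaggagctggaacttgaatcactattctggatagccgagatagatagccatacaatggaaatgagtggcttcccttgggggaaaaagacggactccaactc
Irs1 (chr1:82291390-82291689, minus strand): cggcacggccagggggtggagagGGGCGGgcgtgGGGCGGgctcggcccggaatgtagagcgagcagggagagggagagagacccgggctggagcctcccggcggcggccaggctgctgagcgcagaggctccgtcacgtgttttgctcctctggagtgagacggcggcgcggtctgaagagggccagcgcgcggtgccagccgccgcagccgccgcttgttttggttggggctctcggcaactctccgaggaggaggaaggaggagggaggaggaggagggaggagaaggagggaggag
Irs2 (chr8:11008880-11009179, minus strand): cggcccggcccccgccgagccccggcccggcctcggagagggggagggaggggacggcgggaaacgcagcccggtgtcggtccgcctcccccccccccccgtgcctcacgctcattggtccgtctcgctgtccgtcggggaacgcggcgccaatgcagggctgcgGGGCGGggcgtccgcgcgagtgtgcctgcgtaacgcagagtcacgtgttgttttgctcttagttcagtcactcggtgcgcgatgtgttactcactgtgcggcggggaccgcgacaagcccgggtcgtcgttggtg
The Igf1 window held a TCF/LEF match 186 bases before the start, a motif found in 5.14% of the 32851 windows, and no GC box. Igf1 has 8 annotated transcripts, and its only window lies inside the gene, downstream of the gene start at chr10:87858265. The region before that gene start was not searched, so these matches describe a single annotated start of Igf1. Irs1 held 2 GC boxes, 227 and 216 bases before its start, and Irs2 held 1 at 85 bases before it. A GC box occurred in 35.7% of all windows, the TATA box in 13.6% and the FOXO motif in 3.65%. The GC content was 52.3% for Igf1, 71.3% for Irs1 and 72.0% for Irs2, beside a median of 52.7% over all windows. A match of letters describes the window and shows no binding.

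Counted over the members, the calls of the mammary-region tissues against SM were all in one direction. In MM13 against SM, 4 of 7 members were lower and 0 higher, where 15.6% of all genes tested were lower and 14.5% higher. In MM16 against SM 4 were lower and 0 higher, beside 16.6% and 18.5% of all genes, and in FP against SM again 4 and 0, beside 19.3% and 20.2%. The 4 were Igf1, Igf1r, Insr and Irs1 each time, and the comparisons share the SM pools. Relative to the median of their length class, all 4 stayed past 0.58 in MM13. Of the 4, only Igf1 and Irs1 did so in MM16 and only Igf1 and Igf1r in FP. On that scale Igf2r in FP came to 0.63, past 0.58 in the other direction. At an unadjusted p under 0.05 in edgeR, 1 member, Igf2r, was higher in each of these comparisons. Its adjusted p was under 0.05 too, and its fold changes were short of a call. The Wald test of DESeq2 called 0 higher and 4 lower in each comparison. The median log2 fold change of the members was -1.002, -0.65 and -0.67 in the 3 comparisons, beside 0.03, -0.01 and 0.03 over all genes. In MM13 against VM 1 member was higher (Igf1) and 1 lower (Irs2), where 3.79% of all genes were higher and 2.66% lower. In MM16 against MM13 and in FP against MM13 2 members were higher, Igf1 and Irs1, where 12.6% and 14.3% of all genes were higher and 7.16% and 11.2% lower. In FP against MM16 only Irs1 was called, as higher, beside 6.78% of all genes higher and 7.34% lower. In the remaining comparisons, 5 members were called in VM against SM (30.2% of all genes in either direction), 3 in MM16 against VM (23.3%) and 3 in FP against VM (27.4%). Those in VM against SM were Igf1, Igf1r, Insr and Irs1, again lower, and Irs2, higher, so the 4 were lower than in SM outside the mammary region too.

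**Figure D4:**
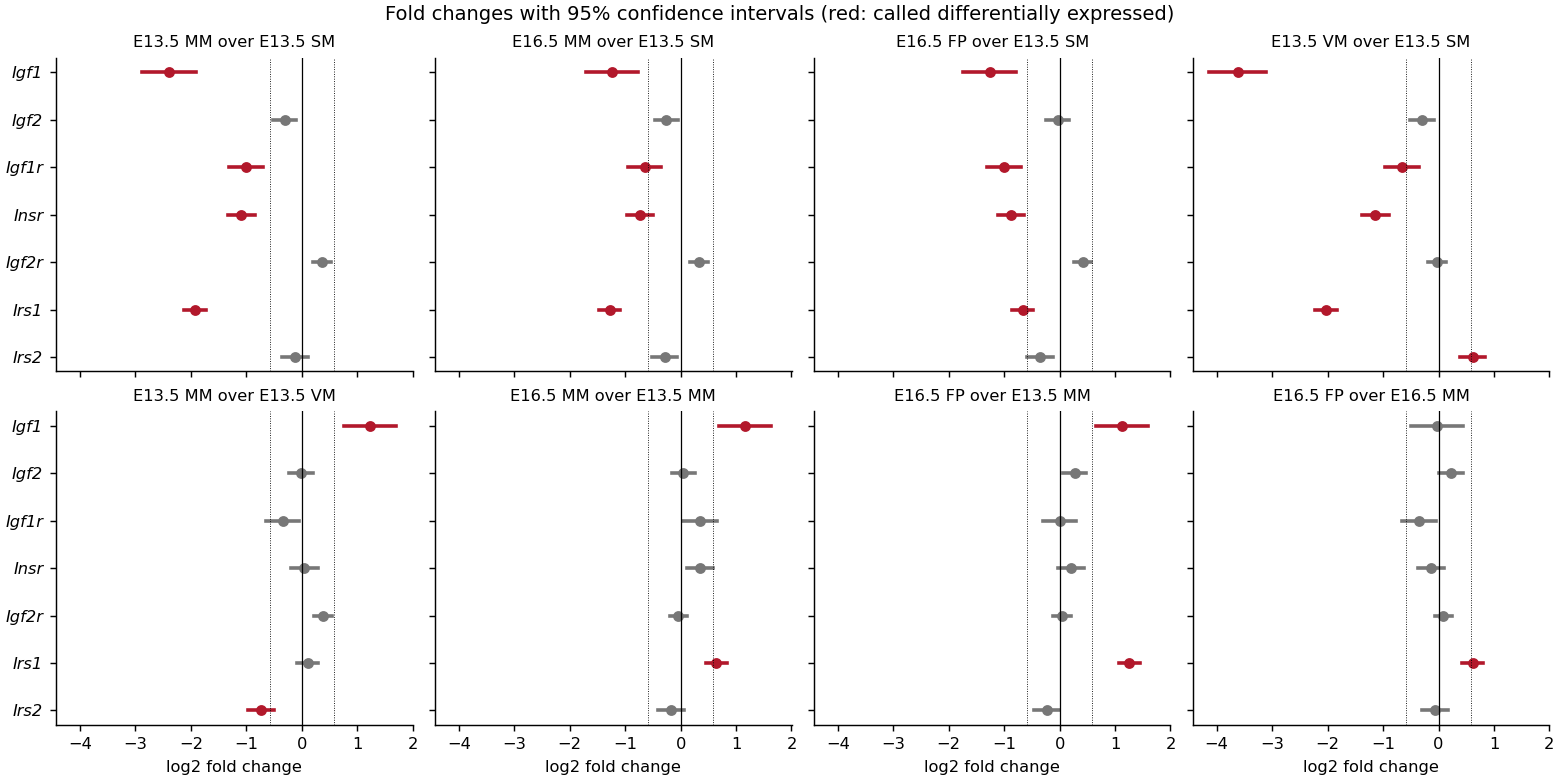
Log2 fold changes of the 7 members (points) with 95% confidence intervals (lines) in 8 comparisons, each panel giving the first tissue over the second. Red marks the calls and the dotted lines stand at -0.58 and 0.58. Igf1, Igf1r, Insr and Irs1 lie left of -0.58 in all 4 panels against SM, and the intervals of Igf2 and Igf2r stay between the lines in all 8 panels.

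Each member had genes whose pattern over the 25 pools was closest to its own among 12708 genes with a mean above 100. For Igf1 these were Ntrk3, the receptor of neurotrophin-3 (Pearson's r = 0.969), Sned1, an extracellular matrix protein gene (0.966), and Nrk, a kinase gene (0.964). Nrk had 20460 normalized counts on average in FP, 11950 in MM16, 5505 in MM13, 2616 in VM and 53330 in SM, nearly the order of Igf1. For Irs1 they were Dst (0.972), Il6st (0.972) and Plcd1 (0.971). Il6st encodes gp130, the shared receptor subunit of the interleukin-6 family, and Dst a large cytoskeletal linker. Igf1r was most like Crebbp (0.977), Prrc2b (0.973) and Pcnx (0.965), and Insr most like Kmt2c (0.972), Inpp4a (0.968) and Tnrc6b (0.968). Irs2 was most like Pcdhgc3 (0.937), Khsrp (0.925) and Ctdp1 (0.924). The nearest genes were less similar for Igf2 (Srp68 0.846, Hdac1 0.831, Ctdnep1 0.825) and Igf2r (Arhgap29 0.873, Arhgef3 0.856, Abi3bp 0.855), the members that varied least.

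Of 29 genes of signal transduction below the receptors, 3 were higher and 6 lower in MM13 than in SM, beside 14.5% and 15.6% of all genes, with a median log2 fold change of -0.19. These counts lie near the background and are no result about the list. Pik3r1, the regulatory subunit of phosphatidylinositol 3-kinase, averaged 4717 ± 438 normalized counts in MM13 and 2083 ± 246 in SM (log2 fold change 1.18 ± 0.12, adjusted p = 7.6e-09 by edgeR). Eif4ebp1, a repressor of translation that mTOR inactivates, averaged 1210 ± 138 in MM13 and 420.1 ± 114 in SM. Gsk3b, a kinase that AKT inhibits, averaged 2579 ± 172 in MM13 and 4765 ± 778 in SM. In MM16 4 of the 29 were higher and 7 lower than in SM, beside 18.5% and 16.6% of all genes, and in FP 5 and 10, beside 20.2% and 19.3%. In MM13 against VM only Grb14, an adaptor that restrains insulin receptor signalling, was called, as higher. It had 106 ± 15.7 normalized counts in MM13 and 42.4 ± 10.6 in VM (log2 fold change 1.33 ± 0.22). Over all genes 3.79% were higher and 2.66% lower, so this count too is near the background. At an unadjusted p under 0.05 in edgeR 2 of the 29 were higher and 6 lower there, and DESeq2 called 1 higher and 0 lower. In FP 3 of the 29 were higher than in MM16, beside 6.78% of all genes. The largest difference was that of Irs4, another docking protein of the IRS family, with 954 ± 488 normalized counts in FP and 81.0 ± 42.2 in MM16 (log2 fold change 3.56 ± 0.40, adjusted p = 2.57e-07 by edgeR). Irs4 averaged 33.5 ± 24.2 in MM13, 18.2 ± 3.12 in VM and 8.09 ± 2.45 in SM.

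Among 6 genes whose products bind IGF2 mRNA or control those that do, 5 were lower in MM16 than in MM13 and 5 in FP, beside 7.16% and 11.2% of all genes, with median log2 fold changes of -0.91 and -1.18. Hmga2, a chromatin protein of embryonic cells, fell to 1780 ± 602 normalized counts in MM16 and to 234 ± 84.0 in FP, against 7303 ± 988 in MM13. Igf2bp1, which encodes a protein that binds IGF2 transcripts, fell to 1518 ± 122 in MM16 and to 1259 ± 268 in FP, against 2952 ± 243 in MM13. Lin28b, which blocks the maturation of let-7 microRNAs, fell to 75.2 ± 6.23 in MM16 and to 80.4 ± 29.4 in FP, against 200.1 ± 15.0 in MM13. DESeq2 called 4 lower in MM16 and 5 in FP. No gene of this list was called higher at E16.5 in edgeR, where at an unadjusted p under 0.05 there were 0 in MM16 and 1 in FP and DESeq2 called 0 in both. Igf2 itself had log2 fold changes of 0.05 ± 0.10 and 0.27 ± 0.10 in the same comparisons.

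Of 7 genes of the growth hormone axis, which drives Igf1 in the postnatal liver, Ghr, the growth hormone receptor, averaged 4847 ± 201 normalized counts in MM13 and 2603 ± 226 in SM (log2 fold change 0.90 ± 0.10, adjusted p = 1.36e-08 by edgeR). Together 2 of the 7 were higher and 1 lower in MM13 than in SM, near the background of 14.5% and 15.6% of all genes. Igf1 was lower in that comparison. The list of other insulin family genes held Insrr, a receptor kinase related to the insulin receptor, which averaged 23.8 ± 9.45 normalized counts in MM13 and 787 ± 117 in SM. Peripheral neuron markers (8 genes) summed to 331 to 446 CPM in SM and to at most 178 CPM elsewhere, and their part in the Insrr level was not tested. Ins1 and Ins2, the insulin genes, had 14 and 61 counts over all 25 pools and were not tested. Cdkn1c, an imprinted growth inhibitor on the same chromosome as Igf2, averaged 24340 ± 2712 in MM13 and 70964 ± 13667 in SM, a log2 fold change of -1.54 ± 0.12 where that of Igf2 was -0.31. H19, Igf2os and Airn were not analysed here. Of 5 genes that make or sort mannose 6-phosphate cargo with IGF2R, 1, Gnptg, was lower in MM13 than in SM. Beside 15.6% of all genes lower, this count is near the background and is no result about the list.

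Of 11 tested genes of IGF binding proteins and their modulators, 7 were higher in MM13 than in VM and 0 lower by edgeR (3.79% and 2.66% of all genes), with 1 lower at an unadjusted p under 0.05 and 0 by DESeq2. The 1 lower was Igfbp4, whose log2 fold change of -0.33 ± 0.08 (adjusted p = 0.00624, edgeR) was short of the size of a call. Of the 6 binding protein genes among them, Igfbp3 and Igfbp6 were called. The other 5 called were the protease genes Pappa, Pappa2 and Htra1, and Stc1 and Stc2, whose products inhibit pappalysins. Against SM the 11 went both ways. In MM13 5 were higher and 2 lower (14.5% and 15.6% of all genes), in MM16 6 and 3 (18.5% and 16.6%), and in FP 5 and 3 (20.2% and 19.3%). Against MM13, 3 were higher and 4 lower in MM16 (12.6% and 7.16%), and 2 and 7 in FP (14.3% and 11.2%). Pappa2 and Pappa, proteases that cut IGF binding proteins, stood at opposite ends, Pappa2 at 11784 ± 1453 normalized counts in MM13 and 15.1 ± 3.35 in SM, and Pappa at 520 ± 109 in MM13 and 6638 ± 624 in SM.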

How the data were processed

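RNA-Seq counts of 25 mesenchyme pools were analysed. The authors trimmed the reads (FastQC 0.11.8, MultiQC 1.9, Trimmomatic 0.39), removed ribosomal RNA with SortMeRNA, estimated counts per gene on mm10 with Salmon 0.99.0 and deposited these estimated counts as 1 matrix of 35880 genes. The submitters list DESeq2 3.15 for their own tests. The annotation release and the use of strand are not given in the sources used here, and reads that several genes share are apportioned among them by Salmon. No column was left without a sample.

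The counts were scaled by TMM and fitted over all 5 tissues with edgeR 4.0.16 (quasi-likelihood test, R 4.3.3, 20 residual degrees of freedom, common dispersion 0.0433). The filter on low counts kept 17657 genes. Calls followed the thresholds of the study (adjusted p under 0.05, log2 fold change past 0.58 in either direction), with the mean above 50 taken in the higher tissue. Log2 CPM used a prior count of 2. Ratios within a pool, with 0.5 added to each count, were compared by exact permutation. Total counts of 20678150 to 34448304 set the counting precision.

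Replicate numbers did not pair the samples: deviations of same-numbered pools correlated between -0.374 and 0.289. The 7 members were always named. From the pathway lists up to 3 called genes with the largest change, and for each member the 3 genes of highest correlation, were eligible. Members and lists were chosen with earlier results of these data known. Alternatives were DESeq2 1.42.0 (test and size factors), no filter, fits of 2 tissues, a mean over both tissues, the replicate block, each replicate left out, other added counts and rank correlation. Figures used matplotlib 3.10.9.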

Additional observations from a re-analysis of the deposited data

Results flagged for a closer look

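In 4 of the 55 groups of 5 pools examined, 1 pool lay apart from the others by Dixon's criterion (gap over range above 0.71), where chance gives about 1 in 20. Igf1 had 3682.7 normalized counts in VM replicate 2, against 1400.8 to 1640.5 in the other pools of that tissue. Igf2 had 66457.1 in SM replicate 4, against 48455.0 to 53399.5. Igf1r had 3320.2 in FP replicate 2, against 2062.2 to 2265.6. The log2 ratio of Irs1 to Irs2 was 2.19 in MM16 replicate 5, against 2.479 to 2.579. In VM replicate 2 A2m, high in MM13 at 1197 counts or more, had 29.1 normalized counts, within the 16.9 to 31.2 of its tissue. Of the 3 genes most like Igf1, Sned1 had 125.7 in that pool, against 64.8 to 81.5 in the other VM pools. Nrk had 3279, against 2228 to 2660, and Ntrk3 had 136.1, within the 99.9 to 179.8 of its tissue. The cause of the high Igf1 value was not tested.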

How the results depend on the processing

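All counts of called genes stayed within 1.5 times under every alternative run. With the replicate block they were 5317 against 5314 in MM13 over SM and 1125 against 1139 in MM13 over VM, and the block changed no member's call. At most 2 of the 5 pools of the first tissue in a comparison correlated best with the pool of their own number in the second. Directions turned only for differences near 0. Igf1r in FP over MM13 (-0.00) was 0.021 with DESeq2's test, 0.021 with its size factors and 0.017 in the fit of 2 tissues, which also gave 0.001 for Igf2 in FP and 0.008 for Igf2r in VM, both over SM. Without the filter Igf2 was 0.012 in MM13 over VM, Igf2r -0.010 in FP over MM13 and Igf1r -0.006 in MM16 over VM. Igf1r in MM16 over SM was -0.57 in the fit of 2 tissues, under a call. The cause was not tested.

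With each replicate left out in turn, the log2 fold change ran from -0.145 to 0.053 for Igf2 in FP over SM, from -0.061 to 0.038 for Igf2 in MM13 over VM, from -0.002 to 0.086 for Igf2 in MM16 over VM, from -0.07 to 0.046 for Igf2r in MM16 over MM13, from -0.052 to 0.009 for Igf2r in VM over SM, from -0.153 to 0.06 for Igf1r in FP over MM13, from -0.045 to 0.106 for Igf1r in MM16 over VM, from -0.154 to 0.075 for Igf1 and from -0.188 to 0.015 for Irs2 in FP over MM16. Differences in ratios that changed direction or side of the threshold ran from -0.467 to -0.312 for Igf2 to Igf2r in MM13 minus VM, which passed only while MM13 replicates 1 and 2 and VM replicates 1 to 4 were all kept. They ran from -0.386 to -0.247 for Igf2 to Igf2r in MM16 minus VM, from -0.517 to -0.381 for the same ratio in FP minus SM, from -0.062 to 0.057 for Igf1r to Insr in MM16 minus MM13, from -0.262 to -0.15 for that ratio in FP minus MM13, and from -0.365 to -0.258 for Irs1 to Irs2 in FP minus SM. Set against genes of like length, a comparison chosen after seeing the data, 21 of 70 member values moved by more than their spread and 0 called values changed direction. Under rank correlation the 3 nearest genes changed in part or whole for 5 of the 7 members.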
